A study of Mus musculus with 15 samples.

Results

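Resolvin E1 (RvE1) was given to mice that received angiotensin II (AngII), and the aortas of 5 such libraries were compared with those of 5 AngII libraries without RvE1. These 10 libraries belong to a series of 15 from mouse aorta, all labelled wild type, in which 5 Sham libraries make up the third group. AngII was infused at 750 ng per kg per minute in both compared groups to raise blood pressure, and RvE1 was injected intraperitoneally at 2 µg per kg per day in the AngII+RvE1 group. The groups therefore share the infusion and differ by RvE1, and no group with RvE1 alone is among the 15. The labels used here give no strain, sex, age, length of infusion, vehicle or time of collection, and they do not say whether each library came from its own animal, so a p-value here reflects only how much these samples vary. Libraries were made from total RNA with a SMARTer mRNA kit. Values are treated as FPKM, fragments scaled to transcript length and library size. A gene was tested if it reached a value of 1 in at least 5 of the 15 libraries, and 12603 of 34714 genes did.

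Angiotensin II is the effector peptide of the renin-angiotensin system: it contracts vascular smooth muscle through its type 1 receptor, and its long infusion in rodents raises blood pressure and thickens and scars the arterial wall. RvE1 is derived from eicosapentaenoic acid, acts on the receptor ChemR23, encoded by Cmklr1, and is known for limiting leukocyte entry and promoting clearance of inflamed tissue. Smooth muscle cells of the media carry a contractile gene program driven by serum response factor and myocardin, and they can lower it under injury while they divide or deposit matrix. A whole aorta also holds endothelium, adventitial fibroblasts, resident leukocytes, blood, nerve and, unless removed, the surrounding fat.

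The libraries differed within groups before any comparison. The 8 lymphocyte markers summed to 754, 253 and 1170.0 FPKM in AngII libraries 3, 4 and 5, and to 12.1 and 6.10 in libraries 1 and 2 of that group, against 7.39 to 9.67 in AngII+RvE1 and 3.51 to 57.4 in Sham. Results are given below with and without these 3 libraries. The 7 smooth muscle markers, which define the main cell of the aortic media, were present in every library and summed to 1159 to 3323 FPKM in AngII, 5323 to 9583 in AngII+RvE1 and 1716 to 12054 in Sham. White adipocyte markers were also present throughout (1292 to 1942 and 677 to 1341 FPKM over 4 markers in AngII and AngII+RvE1), as were red cell markers (4859.7 to 28758 and 17934 to 50528 over 3). In bulk tissue, fewer cells of a type and less RNA per cell cannot be told apart.

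AngII+RvE1 exceeded AngII for 531 of the 12603 tested genes (4.21%) and lay below it for 543 (4.31%) at an adjusted p under 0.05 (limma on log2(FPKM + 1), Benjamini-Hochberg adjustment over all tested genes), which is what "called" means below. Every list count below stands against these shares of 4.21% and 4.31%. Brackets after a gene give its log2 difference (AngII+RvE1 minus AngII) and the adjusted p of the same limma fit, and fold changes on this scale are damped for low genes. Genes without overlap between the 5 and 5 libraries numbered 740 with AngII+RvE1 above (5.87%) and 659 with AngII+RvE1 below (5.23%), and they included 448 of the called higher and 333 of the called lower genes. The median log2 difference was -0.11 over all tested genes, 1.13 over the called higher genes and -0.83 over the called lower ones. Dividing each library by its median ratio to the geometric mean library moved the first median to -0.04 and the calls to 766 higher and 505 lower, so that 60.3% of calls were higher in place of 49.4%.

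How many genes were called depended on which libraries were included. Leaving out AngII library 3, 4 or 5 reduced the higher genes to 240, 303 or 44 and the lower ones to 149, 175 or 51. Leaving out AngII+RvE1 library 1, 3, 4 or 5 reduced them to 82, 295, 56 or 49 and to 82, 175, 62 or 52. Without AngII library 1 or 2 there were 1162 or 1292 lower genes, without Sham library 3 there were 833 higher, and without Sham library 2 there were 334 lower. With AngII libraries 3, 4 and 5 left out together, which leaves 2 AngII libraries, limma called 0 genes higher (0%) and 6 lower (0.0476%), while 1447 genes had an unadjusted p under 0.05. All 531 called higher and all 543 called lower genes kept their sign there. Of these, 440 higher and 255 lower genes had an unadjusted p under 0.05. The genes were called in a fit that includes the same libraries, so the signs and these counts are partly fixed by that choice. The same limit applies to called list members below. The median of the called higher genes was then 0.96 and that of the lower ones -0.44. Thus 371 of the 531 higher genes had means within 1.5 times of each other in AngII libraries 3 to 5 and in AngII libraries 1 and 2, against 285 of the 543 lower genes, and for 96 of the lower genes the first mean was over 4 times the second.

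**Figure D1:**
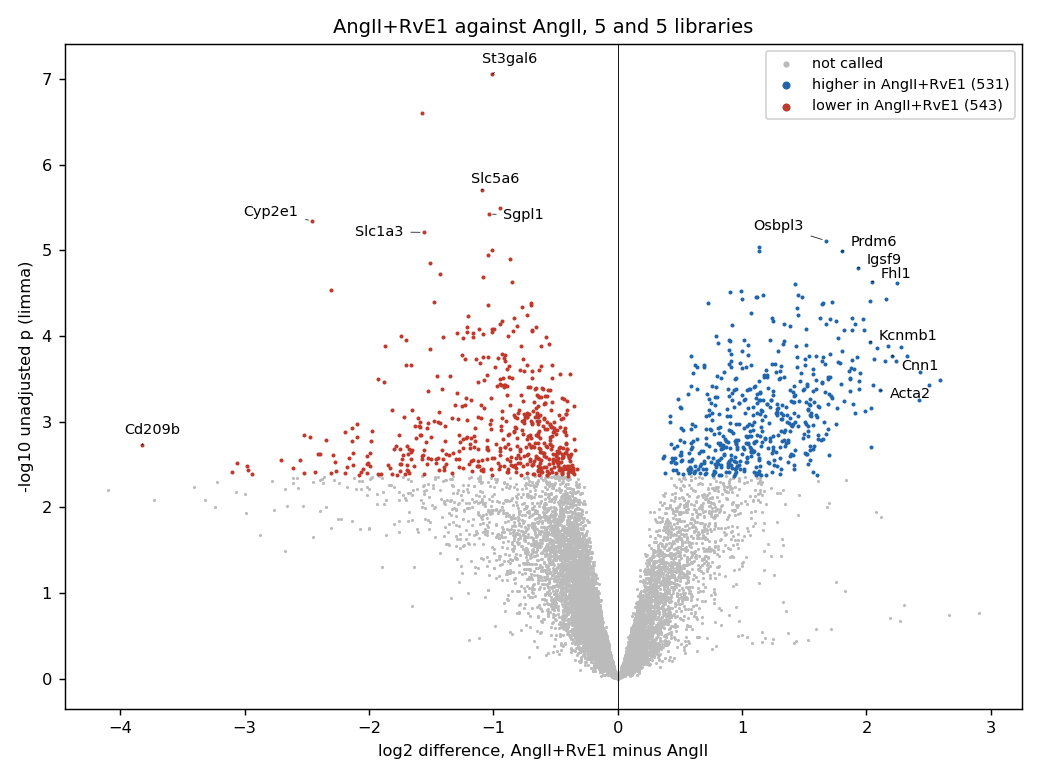
Each point is 1 of 12603 tested genes, with the log2 difference (AngII+RvE1 minus AngII) on the x axis and -log10 of the unadjusted limma p on the y axis; blue points are the 531 called higher and red points the 543 called lower. St3gal6 and Slc5a6 stand high on the left with differences near -1, while Cd209b lies far left with a much larger p.

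The naming rule took the 20 called genes of each direction with the smallest p, a mean of at least 5 FPKM in the higher group and no overlap. The rule therefore fixes, for the genes it took, the separation of the groups and the sign of any difference over fewer libraries, and the values that follow describe their size. St3gal6, which encodes a sialyltransferase that caps glycans of glycoproteins and glycolipids, read 21.6, 20.4, 15.9, 19.9 and 19.3 FPKM in AngII libraries 1 to 5 and 8.20, 9.85, 9.13, 9.58 and 8.84 in AngII+RvE1 libraries 1 to 5. The groups were separated by a wide gap, and Sham libraries read 7.79 to 9.92 FPKM. The mean was 2.13 times higher in AngII (log2 difference -1.01, SE 0.11, limma adjusted p = 0.00111), and with AngII libraries 1 and 2 alone the log2 difference was -1.12 and remained called. St3gal6 lies on chromosome 16 from 58469742 to 58524260 (mm10, whole gene from the RefSeq annotation of GRCm38.p6).

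Slc5a6, the sodium-dependent carrier of biotin and pantothenate, read 11.3, 11.1, 8.07, 13.2 and 10.1 FPKM in AngII and 4.68, 5.85, 5.25, 3.64 and 3.22 in AngII+RvE1 (log2 difference -1.09, SE 0.15, limma adjusted p = 0.00828). Sham spanned 3.22 to 3.98 FPKM. Sgpl1, the lyase that degrades sphingosine phosphate, read 31.9, 26.8, 33.4, 30.4 and 30.4 FPKM in AngII and 15.2, 18.6, 15.8, 12.1 and 11.4 in AngII+RvE1 (log2 difference -1.04, SE 0.15, limma adjusted p = 0.00949). The 5 AngII libraries lay within a narrow band above all others for this gene, with Sham at 12.9 to 20.6 FPKM.

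Several of the 20 lower genes act on lipids or amino acids. Cyp2e1, a cytochrome P450 of liver and fat, read 766, 736, 1172, 1480.0 and 1106 FPKM in AngII and 209, 285, 189, 134 and 139 in AngII+RvE1, a mean 5.50 times higher in AngII (log2 difference -2.46, SE 0.35, limma adjusted p = 0.00953). Scarb1, the receptor for high-density lipoprotein, read 47.9, 40.6, 59.2, 44.6 and 40.4 FPKM in AngII and 25.9, 26.1, 19.9, 28.0 and 25.05 in AngII+RvE1 (log2 difference -0.86, SE 0.14, limma adjusted p = 0.0112). Slc27a1, a fatty acid transport protein, read 102, 74.5, 112, 165 and 111 FPKM in AngII and 43.1, 63.7, 42.9, 31.0 and 28.0 in AngII+RvE1 (log2 difference -1.43, SE 0.23, limma adjusted p = 0.0135). Sham lay at 83.3 to 374, 20.3 to 27.6 and 33.9 to 53.9 FPKM.

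Gpat3, an acyltransferase at the start of glycerolipid synthesis, spanned 6.82 to 12.3 FPKM in AngII and 2.21 to 5.36 in AngII+RvE1 (-1.51, adjusted p = 0.0117). Slc1a3, a glutamate and aspartate carrier, read 27.3, 24.2, 22.2, 30.2 and 26.9 FPKM in AngII and 8.23, 14.5, 10.49, 6.57 and 4.16 in AngII+RvE1 (log2 difference -1.56, SE 0.23, limma adjusted p = 0.0108). Slc7a10, a neutral amino acid carrier of fat, spanned 6.06 to 21.0 and 0.685 to 5.45 FPKM (-2.30, adjusted p = 0.0135). The mitochondrial branched-chain aminotransferase gene Bcat2 was 81.5 ± 13.9 FPKM in AngII and 44.5 ± 6.42 in AngII+RvE1 (SD, n = 5 each; -0.85, adjusted p = 0.0135). The white adipocyte markers were also lower in AngII+RvE1, at the sums given above, and their ranges overlapped only through AngII library 5 and AngII+RvE1 libraries 2 and 3. Their part in these differences was not tested.

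Others of the 20 lower genes have other functions. The proteases and hydrolases among them were Adam12, a membrane-bound metalloprotease (6.04 to 11.1 FPKM in AngII, 1.15 to 3.88 in AngII+RvE1; -1.47, adjusted p = 0.0135), the lysosomal protease gene Ctsz (-0.73, adjusted p = 0.0148) and Acp5, the tartrate-resistant acid phosphatase (-1.08, adjusted p = 0.0135). The signalling genes were Ralgds, an exchange factor for Ral GTPases (-1.05, adjusted p = 0.0135), and Cyth1, an exchange factor for ARF GTPases (-0.77, adjusted p = 0.0139). Trim24, a coregulator of nuclear receptors (-0.70, adjusted p = 0.0135), Klhl2, an adaptor of a ubiquitin ligase (-0.83, adjusted p = 0.0148), Mpp1 (-0.69, adjusted p = 0.0135) and Fam117a (-1.01, adjusted p = 0.0108) were also among them. With AngII libraries 1 and 2 alone, the 19 differences described here lay between -2.02 for Cyp2e1 and -0.52 for Mpp1.

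**Figure D2:**
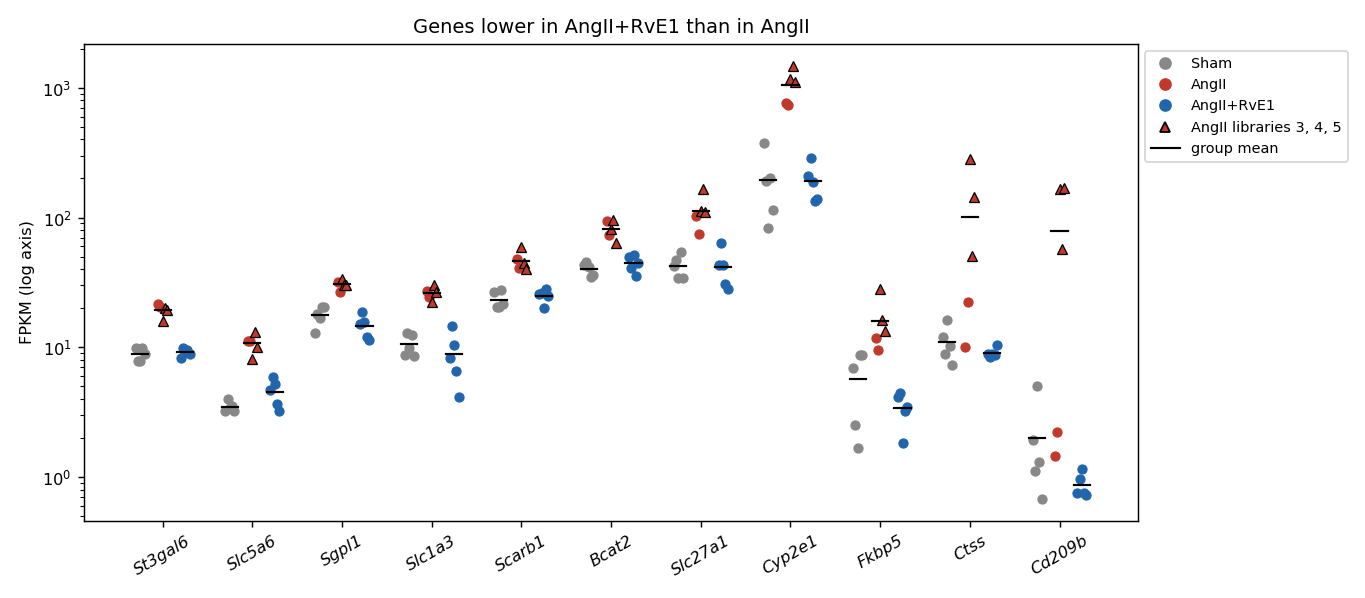
FPKM on a log axis for 11 genes lower in AngII+RvE1, with each point 1 library, triangles for AngII libraries 3, 4 and 5 and a bar at each group mean. From St3gal6 to Fkbp5 all 5 AngII libraries stand above the AngII+RvE1 libraries, whereas Ctss and Cd209b are raised mainly in the 3 triangles.

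A further set came from the comparison with AngII libraries 1 and 2 alone. The 6 genes called lower there were St3gal6, Slc5a6, Slc27a2, Usp2, Mycl and Gm16062, the last 2 of which fall outside the naming rule and were chosen after their values were seen. Slc27a2, a very long chain acyl-CoA synthetase, read 99.4, 77.2, 10.97, 52.4 and 30.02 FPKM in AngII and 24.4, 21.4, 30.6, 18.3 and 13.9 in AngII+RvE1: only AngII libraries 1, 2 and 4 stood above all AngII+RvE1 libraries. Its log2 difference was -2.01 without AngII libraries 3, 4 and 5 and -0.98 with all libraries (adjusted p = 0.154, not called). Usp2, a clock-controlled deubiquitinase, read 20.8, 20.7, 6.76, 13.8 and 8.51 FPKM in AngII and 4.79, 6.61, 3.92, 6.45 and 7.63 in AngII+RvE1 (log2 difference -1.04, SE 0.28, limma adjusted p = 0.0380), with AngII library 3 the 1 inside the AngII+RvE1 range. Mycl, a member of the MYC family, spanned 2.88 to 5.99 FPKM in AngII and 0.423 to 0.942 in AngII+RvE1 without overlap (-1.57, adjusted p = 0.00157).

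The next genes of that ranking had small p-values with AngII libraries 1 and 2 alone without being called there. They include genes of lipid and energy metabolism that were not called with all libraries either, among them Gk, glycerol kinase (-1.46 without AngII libraries 3 to 5, -0.73 with them), Ffar4, a receptor for long chain fatty acids (-1.97 and -1.05), and Pdp2, a pyruvate dehydrogenase phosphatase (-0.94 and -0.37). In Ffar4 the AngII libraries read 31.8, 43.4, 7.59, 14.9 and 16.0 FPKM, highest in libraries 1 and 2, and AngII+RvE1 spanned 3.89 to 14.7. Flcn, the folliculin gene of lysosomal signalling, was also called with all libraries (log2 difference -1.01, SE 0.19, limma adjusted p = 0.0148), and its 5 AngII values (20.2 to 38.4 FPKM) all exceeded those of AngII+RvE1 (10.4 to 15.6). Tm4sf1, a tetraspanin-like membrane protein, was higher in AngII+RvE1 and read 27.4, 39.0, 97.8, 30.7 and 20.9 FPKM in AngII and 156, 113, 87.8, 202 and 165 in AngII+RvE1 (log2 difference 1.89, SE 0.35, limma adjusted p = 0.0148), with AngII library 3 the 1 inside the AngII+RvE1 range.

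Of the 20 higher genes of the naming rule, 3 are given first. Osbpl3, a carrier of the oxysterol-binding protein family, read 2.33, 3.27, 2.83, 2.69 and 2.11 FPKM in AngII and 11.6, 7.21, 8.84, 13.1 and 13.3 in AngII+RvE1, a mean 4.08 times higher (log2 difference 1.67, SE 0.25, limma adjusted p = 0.0108). Prdm6, a transcription factor of vascular smooth muscle, read 4.51, 7.29, 2.87, 4.89 and 2.46 FPKM in AngII and 19.1, 13.4, 12.98, 20.3 and 20.5 in AngII+RvE1 (log2 difference 1.80, SE 0.28, limma adjusted p = 0.0108). Fhl1, a LIM-domain protein of muscle, read 126, 241, 103, 161 and 77.1 FPKM in AngII and 685, 333, 477, 654 and 663 in AngII+RvE1 (log2 difference 2.04, SE 0.34, limma adjusted p = 0.0135). In each of these genes the highest AngII library was library 2.

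The other 17 higher genes included Fgf1 and its receptor gene Fgfr2: Fgfr2 read 3.36, 4.76, 3.62, 2.87 and 2.70 FPKM in AngII and 12.6, 7.90, 13.6, 10.2 and 13.1 in AngII+RvE1 (log2 difference 1.48, SE 0.26, limma adjusted p = 0.0135), and Fgf1 spanned 3.94 to 8.56 and 11.7 to 17.2 FPKM (1.11, adjusted p = 0.0135). Prdm16, a transcription factor known from brown fat that is also present in arteries, spanned 2.12 to 4.53 and 6.70 to 9.62 FPKM (1.14, adjusted p = 0.0108). Adhesion and surface genes were Ncam1 (1.73, adjusted p = 0.0135), Igsf9, of the immunoglobulin superfamily (1.93, adjusted p = 0.0126), and Wscd2 (1.70, adjusted p = 0.0148). Muscle and cytoskeletal genes were Speg, a kinase of muscle cells (1.65, adjusted p = 0.0135), and Lmcd1, a LIM-domain cofactor (2.03, adjusted p = 0.0135). Genes of G protein and small GTPase signalling were Gpsm2 (1.45, adjusted p = 0.0148), Rasl12 (1.25, adjusted p = 0.0148) and Ngef (1.75, adjusted p = 0.0148). Optc, a small leucine-rich proteoglycan (2.15, adjusted p = 0.0135), Gal3st3 (1.65, adjusted p = 0.0135), Ccdc42 (2.25, adjusted p = 0.0135), Stum (1.97, adjusted p = 0.0148), Tceal6 (1.89, adjusted p = 0.0148) and Tmem82 (1.62, adjusted p = 0.0148) complete the 20. With AngII libraries 1 and 2 alone their differences ran from 0.77 for Rasl12 to 1.85 for Ccdc42.

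The contractile smooth muscle list held 16 called higher members of 20 and 0 lower, with a median log2 difference of 1.66 beside -0.11 over all tested genes. Acta2, smooth muscle actin, read 934, 1550.2, 694, 1009 and 485 FPKM in AngII and 4192, 2634, 3365, 4500.3 and 4462 in AngII+RvE1 (log2 difference 2.11, SE 0.47, limma adjusted p = 0.0206). Every AngII+RvE1 library exceeded every AngII library, and Sham ranged from 844 to 6288 FPKM, overlapping both. Cnn1, calponin, read 129, 261, 99.8, 162 and 81.1 FPKM in AngII and 703, 408, 536, 776 and 798 in AngII+RvE1 (log2 difference 2.21, SE 0.44, limma adjusted p = 0.0175), again without overlap. Myh11, smooth muscle myosin heavy chain, read 131, 201, 79.8, 176 and 85.5 FPKM in AngII and 508, 376, 370.2, 626 and 572 in AngII+RvE1 (log2 difference 1.92, SE 0.39, limma adjusted p = 0.0175), and the groups were separate here too.

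The other called contractile genes included Myocd, the coactivator myocardin (1.42, adjusted p = 0.0465), Tagln, transgelin (1.89, adjusted p = 0.0235), Smtn, smoothelin (1.72, adjusted p = 0.0219), and Lmod1, an actin nucleator (1.81, adjusted p = 0.0171). They ranged from Mylk, the kinase of the myosin light chain (1.10, adjusted p = 0.0483), to Itga8, an integrin chain (2.15, adjusted p = 0.0177), and included the actin-binding genes Flna (1.70, adjusted p = 0.0217), Cald1 (1.32, adjusted p = 0.0272), Synpo2 (1.86, adjusted p = 0.0182), Vcl (1.27, adjusted p = 0.0259) and Csrp1 (1.52, adjusted p = 0.0399), the tropomyosin gene Tpm2 (1.53, adjusted p = 0.0443) and the light chain gene Myl9 (1.82, adjusted p = 0.0228). The 4 members not called were Actg2 (1.61, adjusted p = 0.0529), Tpm1 (1.34, adjusted p = 0.0716), the intermediate filament gene Des (0.14, adjusted p = 0.813) and Srf, serum response factor itself (0.18, adjusted p = 0.623). The list median was 1.39 with AngII libraries 1 and 2 alone, where lymphocyte markers summed to 12.1 and 6.10 FPKM and 15 of the 16 had an unadjusted p under 0.05 and 0 were called. Leaving out 1 library at a time gave between 0 and 18 higher members.

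**Figure D3:**
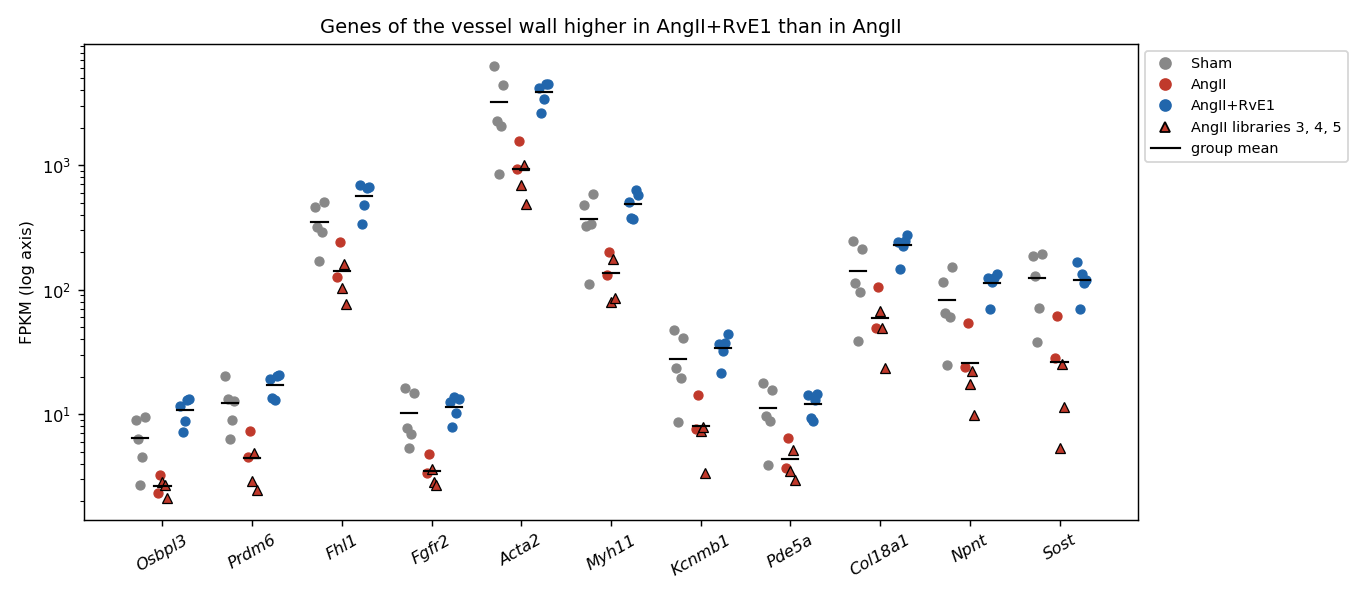
FPKM on a log axis for 11 vessel wall genes higher in AngII+RvE1, with each point 1 library, triangles for AngII libraries 3, 4 and 5 and a bar at each group mean. AngII+RvE1 libraries lie above all AngII libraries for each gene, while Sham libraries overlap both groups for Acta2, Myh11 and Kcnmb1.

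Promoter sequences were read for these genes because contractile genes are classic targets of serum response factor, which binds the CArG box. In the RefSeq promoter table (GRCm38.p6; 250 bases before to 50 after each transcript start) 397 of the 531 called higher genes and 429 of the 543 called lower genes had a window. The CArG box, searched as its 10-letter consensus on both strands, was in 14 of the 397 (3.53%), in 5 of the 429 (1.17%), in 163 of 10078 tested genes (1.62%) and in 1.63% of all 32851 windows. The search allowed no mismatch, so near matches were not counted. Of the 20 tested contractile genes 16 had a window and 3 held the box, among them the uncalled gene Srf. Myh11, Tagln and Myocd were called but had no window. Of the 16 called contractile genes 13 had a window and 2 held the box, Myl9 and Vcl. Their windows are shown around the match, which is in capitals, from chr2:156775258-156775357 and chr14:20929148-20929225, both on the plus strand:
Myl9: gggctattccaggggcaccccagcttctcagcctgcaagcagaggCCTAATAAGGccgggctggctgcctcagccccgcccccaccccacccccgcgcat
Vcl: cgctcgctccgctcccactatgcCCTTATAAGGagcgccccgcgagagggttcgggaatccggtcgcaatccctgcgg
Myl9 was 618 ± 219 FPKM in AngII and 2132 ± 528 in AngII+RvE1 and Vcl was 27.3 ± 5.90 and 67.1 ± 11.8 FPKM (SD, n = 5 each). A match describes letters in this window and is not a measured binding site.

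Some genes that set the tone of the vessel were higher along with the contractile list. Of 21 ion channel and pump genes 6 were higher and 0 lower, with a median of 0.62 (0.42 with AngII libraries 1 and 2 alone; 0 to 11 higher when single libraries were left out). Both subunits of the large-conductance calcium-activated potassium channel were among them. The beta subunit gene Kcnmb1 read 7.64, 14.1, 7.30, 7.94 and 3.38 FPKM in AngII and 36.5, 21.4, 32.0, 37.2 and 44.1 in AngII+RvE1 (log2 difference 2.03, SE 0.39, limma adjusted p = 0.0156), and the pore gene Kcnma1 spanned 1.22 to 2.16 and 4.08 to 6.11 FPKM (1.12, adjusted p = 0.0234), both without overlap. The voltage-gated potassium channel subunit gene Kcnab1 (1.57, adjusted p = 0.0181), the cation channel gene Trpm4 (0.78, adjusted p = 0.0237), and the L-type calcium channel genes Cacna1c (0.94, adjusted p = 0.0465) and Cacnb2 (1.04, adjusted p = 0.0433) were also higher. Cacna1c overlapped between the groups. Kcna5 (-0.31, adjusted p = 0.498), the ATP-sensitive channel gene Abcc9 (0.62, adjusted p = 0.157) and the calcium pump gene Atp2a2 (0.57, adjusted p = 0.449) were not called.

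Among 22 vasoactive receptor and G protein genes described here, 4 were higher. The receptors for constrictors Adra1d, an alpha-1 adrenergic receptor (2.60 to 8.90 FPKM in AngII, 9.01 to 20.9 in AngII+RvE1; 1.33, adjusted p = 0.0261), and Tbxa2r, the thromboxane receptor (5.59 to 8.48 and 11.4 to 21.2 FPKM; 1.11, adjusted p = 0.0349), were higher. So were Ramp1, a coreceptor for the dilator peptide CGRP (1.28, adjusted p = 0.0261), and Rgs4, which shortens G protein signals (1.41, adjusted p = 0.0231). The endothelin receptor genes Ednra (-0.49, adjusted p = 0.173) and Ednrb (-0.57, adjusted p = 0.166) were not called.

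In the nitric oxide and cyclic nucleotide list 5 of 18 genes were higher and 1 lower. Gucy1b1, a subunit of the guanylate cyclase that senses nitric oxide, read 9.28, 13.3, 6.03, 10.1 and 5.75 FPKM in AngII and 27.2, 18.8, 16.7, 29.3 and 27.8 in AngII+RvE1 (log2 difference 1.36, SE 0.33, limma adjusted p = 0.0280), without overlap. The phosphodiesterase genes Pde5a (1.29, adjusted p = 0.0244) and Pde3a (1.2, adjusted p = 0.0235), which end cyclic nucleotide signals, were higher as well, and so were Ppp1r14a (1.95, adjusted p = 0.0186) and Ppp1r12b (1.61, adjusted p = 0.0240), an inhibitor and a subunit of myosin phosphatase. Pde2a, a phosphodiesterase found in endothelium and other cells, was lower (22.5 to 42.5 FPKM in AngII, 13.1 to 20.7 in AngII+RvE1; -0.95, adjusted p = 0.0404). The endothelial nitric oxide synthase gene Nos3 (-0.57, adjusted p = 0.126) and the endothelin gene Edn1 (0.43, adjusted p = 0.383) were not called. All 5 higher members had an unadjusted p under 0.05 with AngII libraries 1 and 2 alone.

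Matrix genes are given by list, and no test compared the lists. In the basement membrane list 10 of 23 genes were higher and 1 lower (median 0.82, or 0.68 with AngII libraries 1 and 2 alone). Col18a1, whose product is a collagen of basement membranes, read 49.3, 106, 67.1, 48.8 and 23.4 FPKM in AngII and 240.1, 147, 222, 244 and 275 in AngII+RvE1 (log2 difference 2.05, SE 0.45, limma adjusted p = 0.0204). Npnt, nephronectin, the ligand of the integrin that contains the Itga8 chain, read 24.0, 53.9, 17.6, 22.3 and 9.75 FPKM in AngII and 124, 69.7, 115, 123 and 134 in AngII+RvE1 (log2 difference 2.28, SE 0.45, limma adjusted p = 0.0160). Both genes were separate between the groups. Col15a1 (1.53, adjusted p = 0.0205), the collagen IV chain genes Col4a5 (1.43, adjusted p = 0.0383) and Col4a6 (1.55, adjusted p = 0.0261), the laminin chain genes Lamb2 (1.11, adjusted p = 0.0496) and Lamc3 (0.69, adjusted p = 0.0465), the perlecan gene Hspg2 (0.98, adjusted p = 0.0450) and the integrin genes Itga3 (1.39, adjusted p = 0.0290) and Itga5 (1.55, adjusted p = 0.0370) make up the rest.

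The laminin beta chains moved in opposite directions. Lamb1 was the 1 lower gene of the list and read 20.2, 18.2, 19.9, 21.2 and 16.7 FPKM in AngII and 6.73, 12.5, 7.49, 7.28 and 4.17 in AngII+RvE1 (log2 difference -1.29, SE 0.24, limma adjusted p = 0.0148). All 5 AngII libraries were above all AngII+RvE1 libraries, Sham spanned 6.60 to 14.9 FPKM, and the difference was -1.29 with AngII libraries 1 and 2 alone. Lamb2 was 35.3 ± 12.2 FPKM in AngII and 74.8 ± 12.5 in AngII+RvE1. The collagen IV genes Col4a1 (0.54, adjusted p = 0.168) and Col4a2 (0.69, adjusted p = 0.112), the main chains of the network, were not called.

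Of 18 elastic fibre genes 7 were higher and 0 lower (median 0.92, or 0.76 with AngII libraries 1 and 2 alone). They were Eln, elastin itself (2.04, adjusted p = 0.0372), the microfibril genes Mfap4 (2.42, adjusted p = 0.0227) and Mfap5 (1.49, adjusted p = 0.0338), Fbln5, which assembles elastin (1.57, adjusted p = 0.0290), Loxl1, which crosslinks it (1.49, adjusted p = 0.0323), and Ltbp1 (1.69, adjusted p = 0.0189) and Ltbp3 (0.92, adjusted p = 0.0227), which store latent TGF-beta. Mfap4 read 50.4, 243, 44.9, 48.4 and 21.5 FPKM in AngII and 316, 178, 264, 456 and 408 in AngII+RvE1, and AngII library 2 lay inside the AngII+RvE1 range. Fbln5 read 24.7, 77.8, 28.3, 29.4 and 19.9 FPKM in AngII and 109, 52.2, 88.2, 111 and 149 in AngII+RvE1, with the same overlap. Of the 7 only Ltbp1 and Ltbp3 were without overlap. Ltbp1 read 10.7, 24.6, 18.2, 13.6 and 9.96 FPKM in AngII and 51.0, 30.1, 50.8, 59.7 and 62.2 in AngII+RvE1 (log2 difference 1.69, SE 0.36, limma adjusted p = 0.0189).

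In the list of proteoglycans and matricellular proteins 8 of 28 genes were higher and 0 lower (median 0.95, or 0.46 with AngII libraries 1 and 2 alone). The CCN family genes Ccn5 (2.59, adjusted p = 0.0190) and Ccn3 (2.43, adjusted p = 0.0182) were among them. Ccn3 read 40.8, 130.01, 26.2, 41.5 and 30.4 FPKM in AngII and 437, 107, 252, 285 and 265 in AngII+RvE1, and AngII library 2 and AngII+RvE1 library 2 were the 2 libraries that made the groups overlap. Sost, the secreted Wnt inhibitor sclerostin, read 28.0, 61.5, 5.35, 25.1 and 11.3 FPKM in AngII and 166, 70.4, 132, 113 and 119.7 in AngII+RvE1 (log2 difference 2.51, SE 0.55, limma adjusted p = 0.0204), without overlap. Postn, periostin (1.65, adjusted p = 0.0340), Bgn, biglycan (1.70, adjusted p = 0.0402), Acan, aggrecan (1.05, adjusted p = 0.0357), Prelp (0.97, adjusted p = 0.0342) and Optc, given above, were the others.

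Among 20 fibrillar collagen and processing genes only Loxl1 was called. This count and those of the proteases stand beside 4.21% of all tested genes called higher and 4.31% called lower. Col1a1 read 62.3, 204, 181, 53.6 and 51.6 FPKM in AngII and 217, 113, 113, 214 and 101 in AngII+RvE1 (log2 difference 0.64, SE 0.48, limma adjusted p = 0.398), and Col3a1 read 80.3, 271, 278, 77.4 and 86.6 and 232, 120.3, 154, 284 and 162 FPKM (log2 difference 0.45, SE 0.44, limma adjusted p = 0.534). Libraries of both groups were interleaved for both genes. The fibronectin gene Fn1 spanned 59.1 to 178 and 149.7 to 288 FPKM (1.33, adjusted p = 0.0600). Of 24 protease genes Mmp17, a membrane-type metalloprotease, was higher (1.41, adjusted p = 0.0291), and Adam12, given above, and Ctss, cathepsin S of antigen-presenting cells, were lower. Ctss read 10.1, 22.2, 282, 50.2 and 145 FPKM in AngII and 8.92, 8.39, 8.88, 8.74 and 10.4 in AngII+RvE1 (log2 difference -2.47, SE 0.64, limma adjusted p = 0.0331), so it was raised most in AngII libraries 3, 5 and 4. AngII library 1 lay within the AngII+RvE1 range.

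Counts of growth factor, patterning and Wnt genes are given beside 4.21% of all tested genes called higher and 4.31% called lower. In the TGF-beta and BMP list 3 of 27 were higher and 1 lower: the ligand gene Tgfb2 (1.60 to 4.73 FPKM in AngII, 6.66 to 14.8 in AngII+RvE1; 1.53, adjusted p = 0.0327), and Pmepa1 (1.05, adjusted p = 0.0205) and Smad6 (1.0, adjusted p = 0.0400), both induced inhibitors of the pathway, against the coreceptor gene Tgfbr3. Tgfbr3 read 11.6, 11.6, 12.9, 12.1 and 11.95 FPKM in AngII and 8.79, 8.46, 8.73, 9.37 and 8.62 in AngII+RvE1 (log2 difference -0.41, SE 0.11, limma adjusted p = 0.0388), a small difference with no overlap. Tgfb1 read 19.2, 23.2, 91.7, 42.7 and 81.1 FPKM in AngII and 23.3, 21.5, 18.9, 24.9 and 29.3 in AngII+RvE1 (log2 difference -0.85, SE 0.38, limma adjusted p = 0.155), high only in AngII libraries 3, 4 and 5, and its difference was 0.14 without them. In the Notch and vascular patterning list 4 of 25 were higher: Heyl, a Notch target of smooth muscle (1.42, adjusted p = 0.0205), the ligand gene Pdgfa (1.15, adjusted p = 0.0250), the receptor gene Pdgfrb of mural cells (0.98, adjusted p = 0.0430) and the semaphorin gene Sema3c (1.21, adjusted p = 0.0282). Heyl read 8.72, 11.7, 7.09, 8.93 and 5.80 FPKM in AngII and 30.8, 12.3, 22.5, 27.3 and 32.1 in AngII+RvE1, without overlap.

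In the Wnt list 3 of 21 genes were higher and 0 lower. They were Sost and Wif1 (1.59, adjusted p = 0.0205), which encode secreted inhibitors, and the Dickkopf family gene Dkk3 (1.76, adjusted p = 0.0284). Wif1 read 0.701, 2.07, 2.14, 0.739 and 0.297 FPKM in AngII and 6.07, 2.68, 4.65, 5.17 and 9.17 in AngII+RvE1, and Dkk3 read 15.9, 43.1, 11.1, 20.6 and 7.17 and 56.0, 47.4, 53.0, 57.8 and 79.3. The groups were separate for both, with AngII library 2 closest in Dkk3. The secreted inhibitor genes Sfrp1 (0.68, adjusted p = 0.167), Sfrp2 (0.72, adjusted p = 0.168) and Frzb (1.11, adjusted p = 0.0650) were not called. Sfrp4 (-0.03, adjusted p = 0.981) and Sfrp5 (-0.80, adjusted p = 0.360), of the same kind, and the target gene Axin2 (-0.59, adjusted p = 0.142) were not called either.

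Calls among blood and lymphatic endothelial genes stand beside 4.21% of all tested genes called higher and 4.31% called lower. Kdr, the main VEGF receptor, was the 1 of 22 blood endothelial genes called: it read 18.3, 15.2, 18.5, 21.5 and 20.7 FPKM in AngII and 12.9, 10.2, 8.97, 13.8 and 14.96 in AngII+RvE1 (log2 difference -0.60, SE 0.15, limma adjusted p = 0.0291), without overlap. The list median was -0.36, and 21 of 22 differences were negative, while the 6 blood endothelial markers summed to 213 to 293 and 154 to 285 FPKM. Of 10 lymphatic genes 5 were lower (median -1.27, or -0.56 with AngII libraries 1 and 2 alone). Mmrn1, a lymphatic multimerin, read 3.67, 2.78, 9.87, 4.73 and 7.62 FPKM in AngII and 1.42, 1.08, 0.281, 1.91 and 0.577 in AngII+RvE1 (log2 difference -1.66, SE 0.34, limma adjusted p = 0.0177), and Flt4, the lymphatic VEGF receptor, read 3.21, 3.26, 8.69, 5.203 and 6.74 and 2.13, 1.81, 1.25, 2.29 and 1.83 FPKM (log2 difference -1.10, SE 0.26, limma adjusted p = 0.0237). Both were separate between groups and highest in AngII libraries 3 and 5. Lyve1 (-1.45, adjusted p = 0.0189), Ccl21b (-2.05, adjusted p = 0.0465) and Tbx1 (-0.68, adjusted p = 0.0488) were the others, and Ccl21b belongs to a family of near-identical copies, so its value is uncertain.

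Macrophage and antigen presentation genes were lower in AngII+RvE1, and the difference was larger with AngII libraries 3, 4 and 5 than without them. Of 24 macrophage genes 10 were lower and 0 higher, with a median of -1.11 over all libraries and -0.34 with AngII libraries 1 and 2 alone. The 5 macrophage markers summed to 70.1, 139, 563, 174 and 267 FPKM in AngII libraries 1 to 5 and 66.8 to 86.1 in AngII+RvE1, and the lymphocyte markers named above were highest in the same 3 libraries. Their part in the result was not tested.

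Members of the macrophage list differed in how they were arranged. Cd163, a scavenger receptor of resident macrophages, read 3.26, 5.01, 4.56, 4.54 and 2.80 FPKM in AngII and 1.82, 2.19, 1.38, 1.35 and 0.867 in AngII+RvE1 (log2 difference -1.0, SE 0.19, limma adjusted p = 0.0148). Its AngII libraries 3, 4 and 5 did not exceed library 2, the groups did not overlap, and the difference was -1.03 with libraries 1 and 2 alone. Il34, a ligand of the CSF1 receptor, read 4.26, 3.39, 3.71, 4.85 and 3.25 FPKM in AngII and 1.75, 2.49, 2.33, 1.86 and 2.35 in AngII+RvE1 (log2 difference -0.63, SE 0.15, limma adjusted p = 0.0261), also without overlap. By contrast Csf1r, that receptor, read 8.50, 16.0, 74.9, 25.9 and 47.7 FPKM in AngII and 10.3, 9.68, 7.05, 8.60 and 7.22 in AngII+RvE1 (log2 difference -1.54, SE 0.41, limma adjusted p = 0.0352), with AngII library 1 inside the AngII+RvE1 range. Cd209b, a lectin of lymphoid tissue macrophages, read 1.44, 2.22, 166, 57.4 and 168 FPKM in AngII and 0.756, 0.972, 1.16, 0.752 and 0.729 in AngII+RvE1, with AngII libraries 3, 4 and 5 far above the other 2. Cd68 (-1.81, adjusted p = 0.0489), Mrc1 (-1.19, adjusted p = 0.0375), Folr2 (-1.02, adjusted p = 0.0301), Cd14 (-0.80, adjusted p = 0.0439), C1qc (-1.2, adjusted p = 0.0441) and Lyve1 were also lower.

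Of 18 antigen presentation genes 11 were lower and 0 higher (median -1.22, or -0.34 with AngII libraries 1 and 2 alone, where 0 of the 11 had an unadjusted p under 0.05). Cd74, which chaperones MHC class II, read 191, 274, 1925, 766 and 2784 FPKM in AngII and 108, 157, 107, 112 and 303 in AngII+RvE1 (log2 difference -2.35, SE 0.61, limma adjusted p = 0.0346). AngII+RvE1 library 5 exceeded AngII libraries 1 and 2. The class II genes H2-Ab1 (-2.20, adjusted p = 0.0311), H2-Eb1 (-2.09, adjusted p = 0.0283), H2-Aa (-2.13, adjusted p = 0.0397) and H2-DMa (-1.78, adjusted p = 0.0372) were lower too, and in the first 2 AngII+RvE1 library 5 exceeded AngII library 1. H2-DMb2 (-3.10, adjusted p = 0.0483) and the lectin gene Cd209a of dendritic cells (-0.93, adjusted p = 0.0253) were also lower. In the class I route the peptide transporter gene Tap2 (18.4 to 46.8 FPKM in AngII, 12.04 to 17.2 in AngII+RvE1; -1.02, adjusted p = 0.0276), the immunoproteasome gene Psmb8 (-1.36, adjusted p = 0.0405), H2-D1 (-1.02, adjusted p = 0.0465) and the transactivator gene Nlrc5 (-1.13, adjusted p = 0.0451) were lower. Of the 18 listed genes 2, Tap2 among them, had no overlap between the groups, beside 5.23% of all tested genes with AngII+RvE1 below. Most of the 11 called members therefore overlapped. The H2 genes are close relatives of each other, so reads may have been split among them.

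The interferon response list held 9 lower members of 26 and 0 higher (median -0.69, or -0.27 with AngII libraries 1 and 2 alone). Irf7, the amplifier of type I interferon, read 7.72, 12.5, 43.0, 19.8 and 27.3 FPKM in AngII and 5.81, 7.09, 5.44, 6.52 and 8.31 in AngII+RvE1 (log2 difference -1.39, SE 0.35, limma adjusted p = 0.0293), and AngII library 1 lay below AngII+RvE1 library 5. Sham spanned 3.34 to 7.57 FPKM. Irf9, a DNA-binding factor of the interferon response (-0.79, adjusted p = 0.0376), Oas2 (-1.23, adjusted p = 0.0237), Ifi44 (-0.83, adjusted p = 0.0261), Xaf1 (-0.70, adjusted p = 0.0419), the nucleic acid sensor gene Zbp1 (-1.38, adjusted p = 0.0444), the tether of virus particles Bst2 (-0.95, adjusted p = 0.0452), and the guanylate-binding protein genes Gbp3 (-0.64, adjusted p = 0.0451) and Gbp7 (-0.67, adjusted p = 0.0488) were the others. The GBP genes lie in a family of close copies. The inducible genes Isg15 (-0.29, adjusted p = 0.507), Ifit1 (-0.56, adjusted p = 0.116) and Rsad2 (-0.45, adjusted p = 0.253) were not called.

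Interferon genes are known for the interferon response element, searched here as GAAANNGAAA on both strands with overlapping matches counted. It was in 3.44% of all 32851 promoter windows, in 367 of 10078 tested genes (3.64%), in 27 of 429 called lower genes (6.29%) and in 10 of 397 called higher genes (2.52%). Of the interferon list 13 of 21 tested genes with a window held it, and 3 of the 7 called lower ones with a window did. These 3 are shown around the match, in capitals, from chr8:71537542-71537647 (minus strand), chr3:142559954-142560043 and chr3:142530238-142530335 (plus strand), with the letters on the gene's strand:
Bst2: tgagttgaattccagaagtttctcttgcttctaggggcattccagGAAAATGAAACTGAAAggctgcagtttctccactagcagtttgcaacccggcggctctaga
Gbp3: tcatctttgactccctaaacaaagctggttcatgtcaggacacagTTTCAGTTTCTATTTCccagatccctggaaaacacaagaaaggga
Gbp7: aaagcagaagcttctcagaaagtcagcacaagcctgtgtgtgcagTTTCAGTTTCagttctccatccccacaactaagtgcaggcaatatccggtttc
In Bst2 and Gbp3 a pair of matches overlap. Bst2 was 66.2 ± 27.1 FPKM in AngII and 32.2 ± 8.14 in AngII+RvE1, Gbp3 9.92 ± 1.41 and 6.09 ± 1.67, and Gbp7 5.25 ± 1.25 and 2.96 ± 0.954 (SD, n = 5 each). None of the 7 called antigen presentation genes with a window held the element.

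Of 17 complement genes 6 were lower and 0 higher (median -0.71, or -0.40 with AngII libraries 1 and 2 alone). C3, the central component, read 169, 159, 262, 222 and 221 FPKM in AngII and 84.1, 127, 64.7, 76.0 and 48.2 in AngII+RvE1 (log2 difference -1.41, SE 0.27, limma adjusted p = 0.0151), and Cfd, factor D of fat cells, read 3396, 3309, 5569.5, 5957 and 4193 and 1689.5, 2364, 1962, 1423 and 1719.7 FPKM (log2 difference -1.27, SE 0.33, limma adjusted p = 0.0354). For both genes AngII libraries 1 and 2 already exceeded all AngII+RvE1 libraries. Cfb, factor B (-1.59, adjusted p = 0.0280), C4b (-1.28, adjusted p = 0.0385), properdin, encoded by Cfp (-1.67, adjusted p = 0.0421), and the inhibitor gene Cd55 (-1.72, adjusted p = 0.0266) were also lower, Cfp and Cd55 mainly against AngII libraries 3, 4 and 5: Cfp read 10.3, 18.9, 134, 30.1 and 62.5 FPKM in AngII and 9.61 to 11.3 in AngII+RvE1. C4b has a near-identical neighbour, so its value is uncertain, and the classical route genes C1ra (-0.53, adjusted p = 0.193), C1s1 (-0.67, adjusted p = 0.0797) and C2 (-1.16, adjusted p = 0.0562) were not called.

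Of 27 chemokine and cytokine genes 7 were lower and 0 higher (median -0.74, or -0.13). The chemokine genes Ccl5 (-2.98, adjusted p = 0.0451) and Ccl8 (-2.71, adjusted p = 0.0425) had the largest differences among these 7. Ccl5 read 4.06, 5.01, 99.4, 52.2 and 166 FPKM in AngII and 1.33, 3.84, 2.06, 2.61 and 6.07 in AngII+RvE1, raised in AngII libraries 3, 4 and 5. Il33, an alarmin of stromal cells, read 6.26, 9.89, 25.7, 10.2 and 17.3 FPKM in AngII and 6.16, 5.63, 3.88, 6.09 and 2.91 in AngII+RvE1 (log2 difference -1.22, SE 0.31, limma adjusted p = 0.0330), the groups being separate by a narrow margin in AngII library 1. Ackr4 (-0.94, adjusted p = 0.0386) and Ackr2 (-0.66, adjusted p = 0.0417), receptors that remove chemokines, Ccl11, eotaxin (-0.56, adjusted p = 0.0483), and Il34 complete the 7. Ccl2 (-0.79, adjusted p = 0.351), Il1b (-0.69, adjusted p = 0.331) and Vcam1 (-0.93, adjusted p = 0.164) were not called, and Il6 and Tnf were under the filter on low values.

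The counts of other leukocyte lists stand against 4.21% of all tested genes called higher and 4.31% called lower. Of 7 lymphoid stroma genes 2 were lower: Cxcl13, a chemokine of B cell follicles (-2.97, adjusted p = 0.0468), and the chemokine gene Ccl21b (-2.05, adjusted p = 0.0465), which lies among near-identical copies and is uncertain. Only Ptprc, the pan-leukocyte phosphatase, was called among 14 lymphocyte genes (1.41, 1.56, 45.1, 12.8 and 54.6 FPKM in AngII and 0.945, 1.44, 0.837, 1.11 and 0.878 in AngII+RvE1), and the list median went from -2.40 to 0.02 without AngII libraries 3, 4 and 5. Of 12 neutrophil and mast cell genes Cpa3 (-1.65, adjusted p = 0.0250) and Mcpt4 (-1.57, adjusted p = 0.0405), both of mast cells, were lower, as were Mcm7 (-0.87, adjusted p = 0.0376) and Birc5 (-1.64, adjusted p = 0.0451) of 14 cell cycle genes, with medians of their lists at -0.76 and -0.90 (-0.11 and 0.04 without the 3 libraries). Of 14 leukocyte adhesion genes Itgb2 (-1.99, adjusted p = 0.0451) and Selplg (-2.02, adjusted p = 0.0483) were lower and Mcam, a surface protein of smooth muscle and endothelium, was higher (1.32, adjusted p = 0.0348). Of 28 NADPH oxidase and antioxidant genes (median -0.27) the phagocyte oxidase gene Cybb (1.38, 2.68, 19.0, 5.29 and 17.8 FPKM in AngII, 1.53, 1.45, 0.970, 1.36 and 1.05 in AngII+RvE1; -1.69, adjusted p = 0.0400) was lower. Nox4, the oxidase of vessel wall cells (1.55, adjusted p = 0.0378), and Sod3, the extracellular superoxide dismutase of arteries (118 to 296 and 358 to 509 FPKM; 1.14, adjusted p = 0.0261), were higher.

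**Figure D4:**
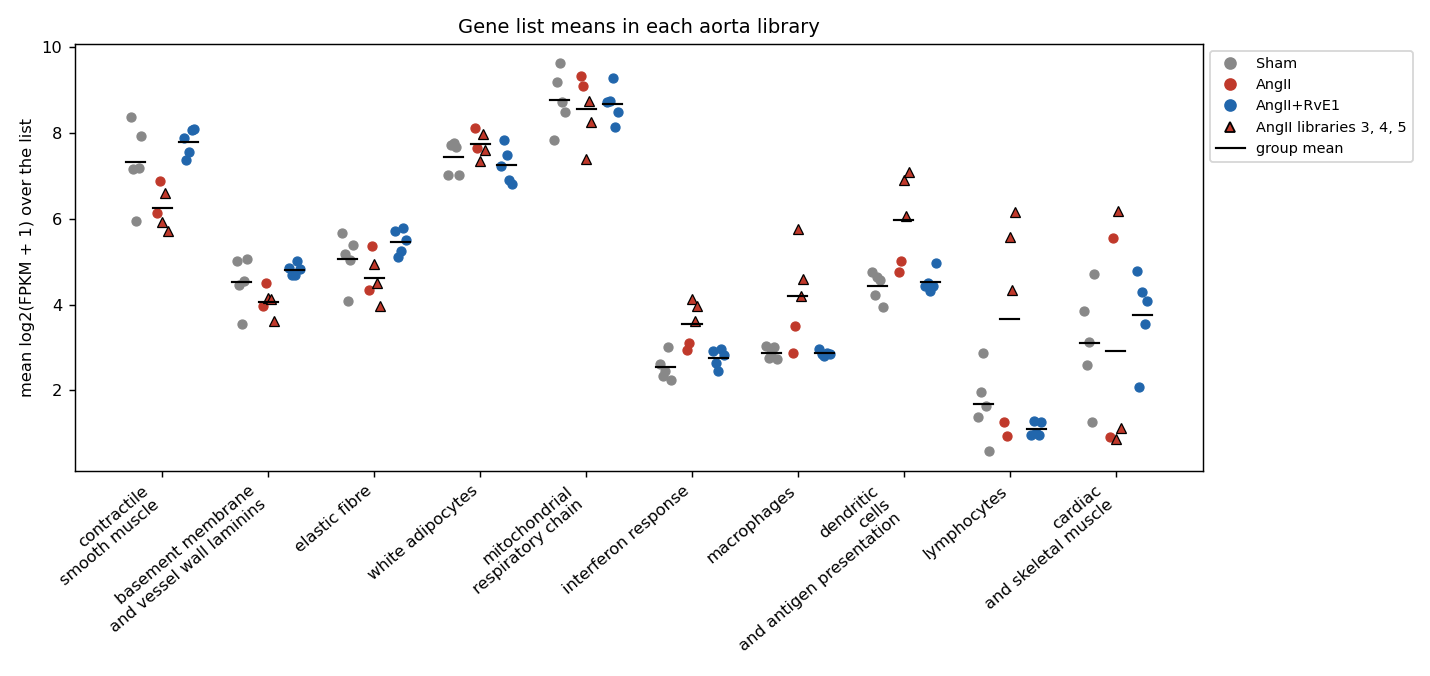
Mean log2(FPKM + 1) of the tested members of 10 gene lists in each library, with triangles for AngII libraries 3, 4 and 5 and a bar at each group mean. The contractile list is separate between AngII and AngII+RvE1, the macrophage, antigen presentation and lymphocyte lists are highest in the 3 triangles, and cardiac and skeletal muscle genes scatter within every group.

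Genes of fat tissue were lower in part. Of 24 white adipocyte genes 5 were lower and 0 higher (median -0.44, or -0.68 with AngII libraries 1 and 2 alone). Cidec, a protein of the fat droplet, read 684, 556, 477, 643 and 451 FPKM in AngII and 266, 415, 354, 213 and 251 in AngII+RvE1 (log2 difference -0.93, SE 0.23, limma adjusted p = 0.0268), and Lpl, lipoprotein lipase, read 894, 679, 436, 658 and 536 and 357, 354, 394, 237 and 279 FPKM (log2 difference -0.96, SE 0.27, limma adjusted p = 0.0435). Neither overlapped between the groups. Retn, resistin (-1.27, adjusted p = 0.0420), Acvr1c (-0.83, adjusted p = 0.0296) and Cfd were the others, while Adipoq (-0.61, adjusted p = 0.104), Fabp4 (-0.36, adjusted p = 0.591) and Pparg (-0.44, adjusted p = 0.373) were not called. Of 17 brown fat genes 2 were higher, Prdm16, given above, and the mitochondrial carrier gene Slc25a34 (1.44, adjusted p = 0.0175). The differences of 9 of the list were negative, and its median was -0.13, or -0.85 with AngII libraries 1 and 2 alone. Ucp1 was not called (0.25, adjusted p = 0.834), and brown adipocyte markers summed to 415 to 5034 and 1422 to 3332 FPKM.

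Of 20 cholesterol synthesis and efflux genes 1 was higher and 5 lower (median 0.15), against 4.21% and 4.31% of all tested genes. The synthesis gene Sqle (5.96, 2.64, 4.599, 5.15 and 5.12 FPKM in AngII, 9.74, 12.02, 6.71, 10.53 and 5.10 in AngII+RvE1; log2 difference 0.77, SE 0.21, limma adjusted p = 0.0417) was higher. The 5 lower genes were the cholesterol exporter gene Abca1 (9.08, 7.63, 17.1, 9.46 and 12.5 FPKM in AngII, 4.30, 6.12, 5.53, 4.04 and 3.82 in AngII+RvE1; log2 difference -1.04, SE 0.21, limma adjusted p = 0.0175), its relative Abcg1 (-1.24, adjusted p = 0.0376), Apoe (-1.15, adjusted p = 0.0328), Scarb1, and the liver X receptor gene Nr1h3 (-0.64, adjusted p = 0.0421). Abca1 did not overlap between the groups, and Sqle overlapped through AngII+RvE1 library 5. Synthesis genes that were not called included Hmgcs1 (0.18, adjusted p = 0.676), Cyp51 (0.22, adjusted p = 0.297), Fdft1 (-0.02, adjusted p = 0.978) and Dhcr7 (-0.14, adjusted p = 0.772). The oxysterol-responsive genes Mylip (-0.82, adjusted p = 0.0548) and Srebf1 (-0.16, adjusted p = 0.735) and the lipoprotein genes Apoc1 (0.18, adjusted p = 0.837) and Lcat (0.33, adjusted p = 0.342) were not called either. With AngII libraries 1 and 2 alone Sqle differed by 0.91, and Abca1 and Abcg1 by -0.71 and -0.28.

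Fads2, the desaturase that makes polyunsaturated fatty acids, was the 1 of 21 lipid synthesis genes called, and it read 7.12, 6.89, 7.62, 7.73 and 7.57 FPKM in AngII and 20.3, 12.97, 13.2, 23.3 and 20.2 in AngII+RvE1 (log2 difference 1.14, SE 0.26, limma adjusted p = 0.0212), with no overlap. Its neighbour in the pathway, Fads1, was not called (0.57, adjusted p = 0.119). The counts of this list and the next stand beside 4.21% of all tested genes called higher and 4.31% called lower. Of 26 fatty acid oxidation genes Acot1 (-0.94, adjusted p = 0.0293) and Ucp2 (-1.59, adjusted p = 0.0326) were lower. Ucp2 read 61.5, 74.8, 394, 153 and 279.8 FPKM in AngII and 49.5, 53.2, 39.1, 58.5 and 49.4 in AngII+RvE1, highest in AngII libraries 3, 4 and 5. The medians of the oxidation and respiratory chain lists were -0.15 and 0.08 over all libraries and -0.75 and -0.54 with AngII libraries 1 and 2 alone, and 0 of 28 respiratory chain genes were called or had an unadjusted p under 0.05 in either fit.

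In the cytochrome P450 and retinoid list 1 of 22 genes was higher and 3 lower, beside 4.21% and 4.31% of all tested genes. The P450 genes Cyp2e1 and Cyp2f2 (12.8 to 35.5 FPKM in AngII, 4.44 to 10.53 in AngII+RvE1; -1.70, adjusted p = 0.0153) were lower. Retinoid genes went both ways: Aldh1a3, which makes retinoic acid, read 2.67, 3.01, 4.91, 3.83 and 3.82 FPKM in AngII and 1.61, 1.76, 0.965, 1.99 and 0.678 in AngII+RvE1 (log2 difference -0.97, SE 0.20, limma adjusted p = 0.0175), whereas Dhrs3, which returns retinal to retinol, read 61.2, 42.9, 60.2, 60.0 and 39.4 and 96.3, 69.9, 103, 93.5 and 127 (log2 difference 0.88, SE 0.21, limma adjusted p = 0.0248). Neither gene overlapped between the groups, and all 4 called list members had an unadjusted p under 0.05 with AngII libraries 1 and 2 alone.

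Among 19 clock genes 1 was higher and 2 lower, beside 4.21% and 4.31% of all tested genes. Npas2, a relative of the core activator Clock, read 0.590, 0.294, 0.872, 0.635 and 0.414 FPKM in AngII and 4.56, 2.98, 2.77, 3.27 and 1.48 in AngII+RvE1 (log2 difference 1.33, SE 0.26, limma adjusted p = 0.0159), and Sham spanned 2.22 to 8.90 FPKM. Ciart, a clock repressor, read 5.82, 8.10, 3.56, 7.16 and 3.34 FPKM in AngII and 1.64, 2.05, 1.22, 2.08 and 2.22 in AngII+RvE1 (log2 difference -1.16, SE 0.22, limma adjusted p = 0.0148). All 5 AngII libraries were below the others for Npas2 and above all AngII+RvE1 libraries for Ciart. Cry1, a repressor of the core loop, was lower (-0.65, adjusted p = 0.0278), with 1.18 to 2.35 FPKM in AngII+RvE1, 2.02 to 4.21 in AngII and 3.36 to 5.04 in Sham. The strongly rhythmic genes Dbp (-0.43, adjusted p = 0.370), Per3 (-0.55, adjusted p = 0.0758), Nr1d1 (0.06, adjusted p = 0.911) and Arntl (0.61, adjusted p = 0.0959) were not called between these groups, and the time of collection of each library is not in the labels used here.

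In the glucocorticoid and FOXO list 2 of 24 genes were lower and 0 higher, beside 4.31% and 4.21% of all tested genes. Fkbp5, a chaperone that feeds back on the glucocorticoid receptor, read 11.7, 9.55, 28.3, 16.2 and 13.4 FPKM in AngII and 4.16, 4.41, 1.81, 3.20 and 3.47 in AngII+RvE1 (log2 difference -1.87, SE 0.37, limma adjusted p = 0.0159). The groups were far apart, and AngII libraries 1 and 2 alone gave -1.43. Sult1a1, a sulfotransferase, was 77.3 ± 10.95 FPKM in AngII and 40.7 ± 9.94 in AngII+RvE1 (-0.93, adjusted p = 0.0175). The receptor target genes Tsc22d3 (-0.94, adjusted p = 0.108), Zbtb16 (-1.32, adjusted p = 0.0761) and Per1 (-0.62, adjusted p = 0.338) were not called, nor were Sgk1 (-0.18, adjusted p = 0.792) and the receptor gene Nr3c1 (-0.05, adjusted p = 0.754).

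Of 14 genes of the 2 ligands' own pathways 1 was called lower and 0 higher, beside 4.31% and 4.21% of all tested genes. Cmklr1 read 6.56, 9.23, 15.5, 10.7 and 10.4 FPKM in AngII and 7.79, 8.25, 5.59, 8.01 and 7.39 in AngII+RvE1 (log2 difference -0.41, SE 0.26, limma adjusted p = 0.319), and the libraries overlapped. Its protein ligand gene Rarres2, chemerin, differed by 0.73, adjusted p = 0.0586. Agtr1a, the main angiotensin receptor of mouse vessels, read 6.07, 3.45, 3.52, 5.26 and 3.53 FPKM in AngII and 5.28, 3.59, 3.996, 4.07 and 1.39 in AngII+RvE1 (log2 difference -0.24, SE 0.24, limma adjusted p = 0.533). Agt, angiotensinogen, was the 1 of 14 called, at 1.34, 1.72, 14.0, 8.80 and 7.38 FPKM in AngII and 1.67, 1.55, 0.708, 0.969 and 0.542 in AngII+RvE1 (log2 difference -1.56, SE 0.46, limma adjusted p = 0.0489); it was raised in AngII libraries 3, 4 and 5, and its difference was -0.31 without them. Ace (0.80, adjusted p = 0.142), the leukotriene and resolvin synthesis gene Alox5 (-0.39, adjusted p = 0.252) and the cyclooxygenase genes Ptgs1 (-0.52, adjusted p = 0.326) and Ptgs2 (0.78, adjusted p = 0.264) were not called. Ltb4r1, the other receptor ascribed to RvE1, and Agtr1b, Agtr2 and Alox15 were under the filter on low values: Ltb4r1 read 0.224 to 2.34 FPKM in AngII and 0.269 to 0.397 in AngII+RvE1.

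Calls among nerve, epithelial and neighbouring tissue genes are set beside 4.21% of all tested genes called higher and 4.31% called lower. Of 18 Schwann cell and nerve genes Ncam1 and Ptprz1 were higher, while 12 of the differences were negative and the median was -0.27. Ptprz1, a receptor phosphatase, read 1.99, 5.09, 0.861, 2.81 and 1.14 FPKM in AngII and 18.7, 8.05, 12.9, 18.1 and 12.5 in AngII+RvE1 (log2 difference 2.24, SE 0.46, limma adjusted p = 0.0177). The Schwann cell factor gene Sox10 (-0.48, adjusted p = 0.434) was not called. Among 5 tested mesothelial and epithelial genes 1 was called. Krt18, a simple epithelial keratin, was higher (0.769 to 5.37 and 4.96 to 23.3 FPKM; 1.61, adjusted p = 0.0325). Cardiac markers ranged from 1.39 to 724 FPKM within AngII and 3.09 to 399 within AngII+RvE1, and 0 of 18 cardiac and skeletal muscle genes were called or had an unadjusted p under 0.05. Of 9 red cell genes 0 were called and 7 had an unadjusted p under 0.05 by limma, against 3652 of all 12603 tested genes. The red cell median was 1.2.

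Some lists of induced responses and that of ribosomal proteins gave no calls by limma. In the same limma fit 3652 of all 12603 tested genes had an unadjusted p under 0.05. The lists of immediate early genes (24 tested, median -0.02, 1 with an unadjusted p under 0.05), of the unfolded protein response and chaperones (27 tested, -0.24, 5 such genes), of hypoxia and glycolysis (21 tested, -0.01, 4 such genes) and of cytosolic ribosomal proteins (25 tested, -0.25, 0 such genes) had 0 called members each. Fos (0.55, adjusted p = 0.612), Hspa5 (-0.24, adjusted p = 0.468) and Vegfa (-0.58, adjusted p = 0.263) are examples. Immediate early genes varied widely within groups, with list sums of 587 to 1228 FPKM in AngII and 432 to 2617 in AngII+RvE1.

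The medians of the 44 lists depended on AngII libraries 3, 4 and 5 to different degrees. Contractile, basement membrane and elastic fibre medians went from 1.66, 0.82 and 0.92 to 1.39, 0.68 and 0.76 without them. Lymphoid stroma, lymphocyte and leukocyte adhesion medians went from -1.94, -2.40 and -0.97 to -0.15, 0.02 and -0.01. White adipocyte, brown fat and clock medians became more negative, at -0.68, -0.85 and -0.53. The median over all tested genes was 0 in that fit.

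**Figure D5:**
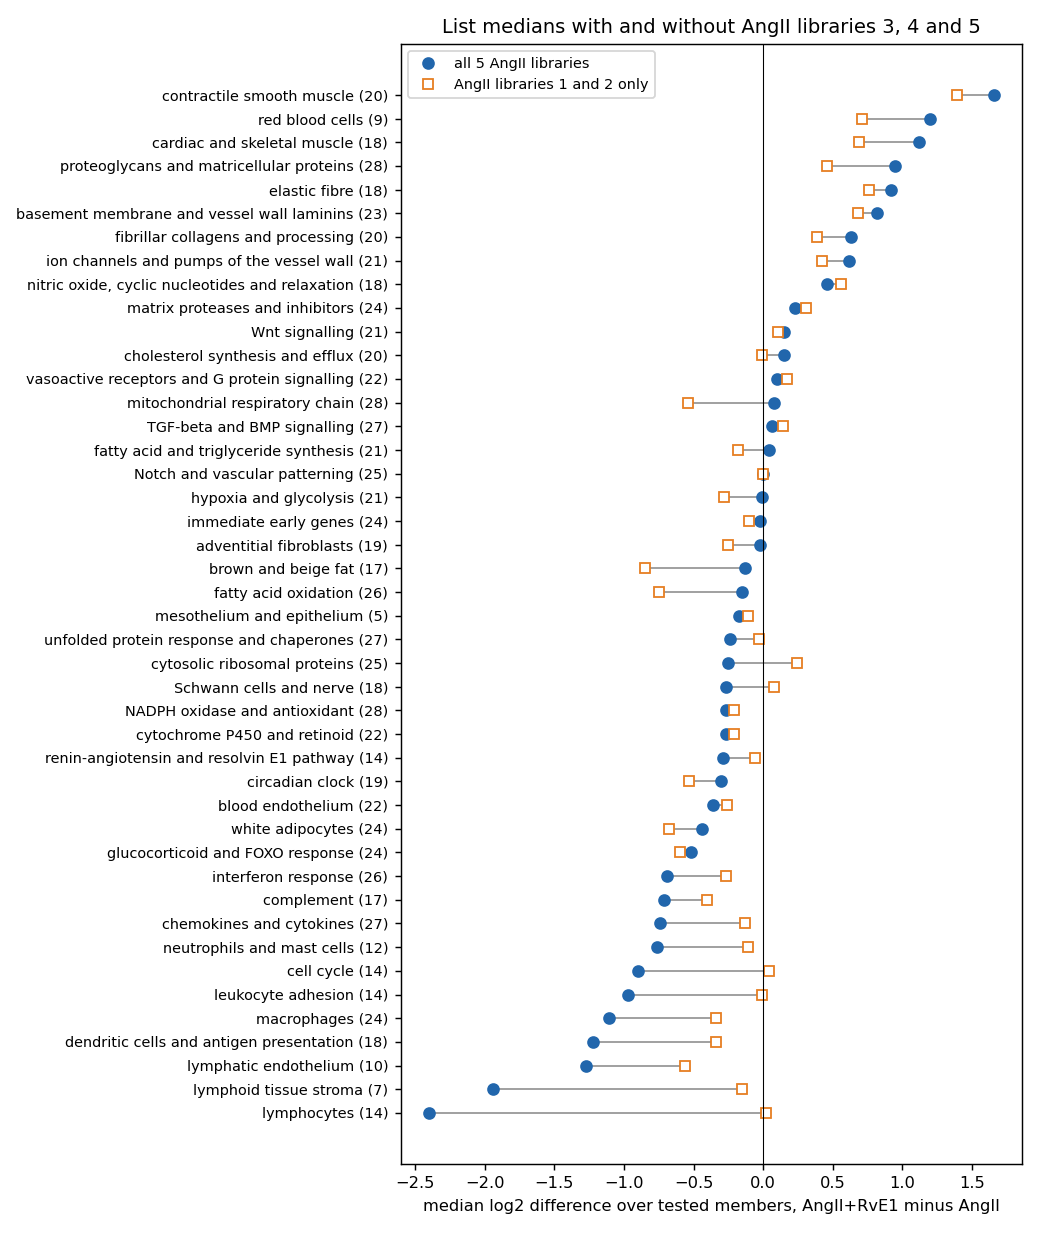
Median log2 difference (AngII+RvE1 minus AngII) over the tested members of each of 44 lists, the number tested in brackets, with circles for all 5 AngII libraries and squares for AngII libraries 1 and 2 alone. Contractile, matrix and channel lists stay to the right of 0 in both, while the leukocyte lists move toward 0 when AngII libraries 3, 4 and 5 are left out.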

How the data were processed

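The comparison uses 1 deposited table of FPKM per gene for 15 mouse aorta libraries (5 Sham, 5 AngII, 5 AngII+RvE1), made by the authors on mm10 per the submitters' processing notes. No source used here names the aligner or quantifier. The unit is inferred: values have decimals, library sums differ (385846 to 514281), and median level falls with transcript length. Read depth is unknown, so no counting interval is given, and counts could not be tested as first planned. Genes at 1 FPKM or more in at least 5 libraries were kept, and log2(FPKM + 1) was fitted with limma 3.58.1 (R 4.3.3; group means over 15 libraries, trended variance, Benjamini-Hochberg adjustment). A difference on this scale understates the change of low genes. The test was also run on simulated data with independent noise in each gene and library. Those data lack shifts shared by many genes of a library, so they do not check how stable the calls are.

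Members and gene lists were chosen with earlier results of these data known. Named genes were the 20 with the smallest p in each direction (mean of at least 5 FPKM, no overlap), up to 6 called members per list with the smallest p, a set of pathway genes, and the 20 with the smallest p without AngII libraries 3, 4 and 5. Other list members, and Mycl, Gm16062 and the genes whose promoters are shown, were chosen after their values were seen. Results of 9 genes are not reported here, and list counts and medians leave them out; counts over all tested genes include them. Alternatives changed the pseudocount, filter, scaling, samples, weights, covariate and block. Promoters came from a RefSeq promoter table (GRCm38.p6), which had windows for 10078 of the 12603 tested genes. Gene positions came from a separate RefSeq gene annotation, which held every deposited symbol.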

Additional observations from a re-analysis of the deposited data

Results flagged for a closer look

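Among 396 groups of 5 values looked at, 19 held a library far from the other 4 (gap over range above 0.71), which chance gives in about 1 group of 20. All values are FPKM of 1 library.

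AngII library 3 was far above its group for Ltb4r1 (2.34), Alox15 (0.907), Ccl2 (24.0) and Il6 (0.705). AngII library 5 was high for Fam117a (24.1) and low for Itga3 (6.61). AngII library 2 was low for Acp5 (115) and high for Fbln5 (77.8) and Ccn3 (130.01).

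In AngII+RvE1, library 2 was low for Npnt (69.7), Ltbp1 (30.1) and Postn (179), and library 3 was low for Prelp (114) and Cmklr1 (5.59). Library 5 was high for Rgs4 (46.1), Ctss (10.4) and H2-Ab1 (103) and low for Cd209a (0.340) and Cd55 (1.89).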

How the results depend on the processing

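Against 531 higher and 543 lower genes, limma gave 213 and 192 with no filter on low values, 1502 and 2967 with array weights, 0 and 5 with the lymphocyte list mean as a covariate, 0 and 6 without AngII libraries 3, 4 and 5, and 0 and 0 when a fold change of at least 1.5 was required; with only the AngII and AngII+RvE1 libraries there were 851 higher and 489 lower. Pseudocount 0.1 gave 520 and 550. Without 1 library at a time, higher genes ran from 44 to 833 and lower genes from 51 to 1292. The replicate block gave 269 and 164. Same-numbered AngII and AngII+RvE1 libraries deviated together with correlations of -0.34 to 0.032, and no library matched its own number best. These deviations show no pairing by number. They also hold the wide spread among the AngII libraries, so they cannot exclude a pairing. Of 166 called genes under the naming rule, 161 were no longer called without AngII libraries 3, 4 and 5, the same number with the lymphocyte covariate, 166 at the fold limit, 89 with no filter, 68 with the replicate block, 28 with the 10 compared libraries alone, 4 under median ratio scaling, 4 with pseudocount 0.1 and 1 with array weights. None of these 166 changed sign, which is partly fixed because they were called on the same libraries. Signs turned for genes that were not called: Tgfb1 to 0.14, Il1b to 0.04 and Vcam1 to 0.02 without AngII libraries 3, 4 and 5, Ccl2 to 0.02 with array weights, and Il1b to 0.17 with the lymphocyte covariate. The causes of these shifts were not tested; leaving out libraries lowers the number of samples by construction. Read depth, which is unknown here, limits low genes such as Ltb4r1.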
